A study of Drosophila melanogaster with 12 samples.

Results

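Gene expression (GE) of escort cells (ECs) was compared between 4w-old and 1w-old Drosophila melanogaster females across all genes. The comparison rests on 4 of the 12 libraries of the study, 2 of ECs from 4w-old and 2 of ECs from 1w-old ovaries, which are all libraries whose records name ECs of these ages. Of the 13726 genes with values in the files, 10675 reached 10 counts in 2 or more of the 4 libraries and were tested. At both ages the females carried LexAop-mCD8::GFP; ptc-LexA, in which the patched (ptc) driver labels cells with membrane GFP. GFP-positive cells that excluded propidium iodide were sorted from dissociated, pooled ovaries, so that the sort selects cells in which ptc-LexA is active, whatever their type. Their cDNA went through PCR amplification, and the sequencing libraries made from it keep the strand. The other libraries of the study come from terminal filament cells and cap cells (TFCs-CpCs) at both ages, and from control and Smu1 RNAi ECs. TFCs-CpCs are used here only where the ageing effect in ECs is set against theirs, and for the level of hh. At both ages they were sorted on high GFP from bab1>tau::GFP females, and far fewer of them than of ECs were sorted per experiment.

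ECs are somatic cells that line the anterior germarium, the structure at the tip of each ovariole where germline stem cells reside. They extend thin processes around differentiating germline cysts, respond to Hedgehog (Hh) from TFCs and CpCs, and secrete Wnt ligands. Ptc is the Hh receptor and is also induced by the pathway. Further along the ovariole, follicle cells surround the egg chambers, and late in oogenesis they make the vitelline membrane and chorion of the eggshell and take part in the production of yolk proteins. Muscle sheaths surround the ovarioles and the ovary.

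The reads counted on genes ranged from 12078227 to 16888122 in the 4 EC libraries. Levels are given in cRPKM, which are reads scaled to the mappable length of the transcript and to the reads mapped in the library. A count of 0 in a library allows up to 3 counts, and this limit covers counting error only, because amplified reads are not independent molecules. The ECs 4w libraries held 8319 and 8717 genes at 1 cRPKM or more, and the ECs 1w libraries 10668 and 8553. Replicate 1 of ECs 1w thus stood apart in the number of genes with low levels. The labels name the libraries biological replicates, and p-values measure the spread between these libraries alone.

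The EC label was checked against marker genes of the cell types that the sort could hold. All 17 listed markers of ECs and somatic gonad cells were tested. Their summed level was 5456 and 4549 cRPKM in the ECs 4w libraries, against 3498 and 3097 cRPKM in the ECs 1w libraries. GstS1, a sigma-class glutathione S-transferase and an EC marker, was the most abundant of them, with 3251 and 2663 cRPKM at 4w and 1365 and 1438 cRPKM at 1w. Traffic jam (tj), a transcription factor of somatic gonad cells, had 711 and 501 cRPKM at 4w and 473 and 476 cRPKM at 1w. Wnt4, a ligand made by ECs, had 371 and 257 cRPKM at 4w and 354 and 235 cRPKM at 1w. Without GstS1 the summed level of the list was 2205 and 1886 cRPKM at 4w and 2133 and 1659 cRPKM at 1w, so that the ages overlapped. GstS1, tj and Wnt4 were abundant in every library, whereas homothorax (hth) was low, with 0.96 and 0.1 cRPKM at 4w and 9.36 and 0.43 cRPKM at 1w.

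Markers of other cells were present as well. The TFC and CpC genes engrailed (en) and invected (inv) stayed at or below 3.69 cRPKM, while hh itself had 89.7 and 83.0 cRPKM in ECs 4w, against 118 and 91.5 cRPKM in ECs 1w. In TFCs-CpCs hh had 25.3 and 106 cRPKM at 4w and 5.35 and 7.65 cRPKM at 1w, so its level does not tell them from ECs here. The 21 late follicle cell genes summed to 15504 and 12272 cRPKM in ECs 4w, against 19783 and 16351 cRPKM in ECs 1w, which is more than the EC markers in each library. The sorted populations thus held abundant eggshell and yolk protein transcripts at both ages. The 8 follicle stem and pre-follicle cell markers summed to 686 and 589 cRPKM at 4w and 623 and 514 cRPKM at 1w. The 19 germline genes summed to 658 and 654 cRPKM at 4w and 600 and 647 cRPKM at 1w. Of the germline sums, piwi made up 376 and 278 cRPKM at 4w and 221 and 281 cRPKM at 1w. In bulk libraries, fewer cells of a type and less RNA per cell cannot be told apart. The plot of summed marker levels shows each list in each library.

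**Figure D1:**
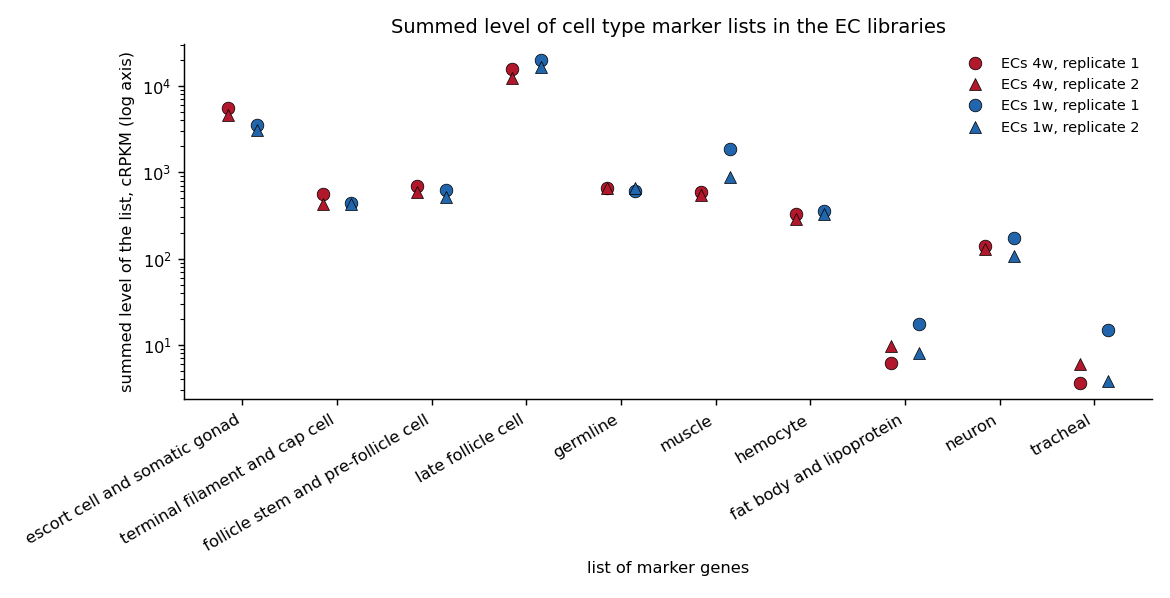
Summed level (cRPKM, log axis) of 10 lists of cell type markers in the 4 EC libraries, with ECs 4w left of ECs 1w in each list and 1 symbol per library. Muscle genes lie lower at 4w (589.54 and 549.55 cRPKM) than at 1w (1847.58 and 880.54 cRPKM), EC markers lie higher at 4w through GstS1, and late follicle cell genes are the highest list at both ages.

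Few genes passed the test with age. A gene was called where it differed by 2-fold or more and had a p below 0.1 in the quasi-likelihood F-test of edgeR, after Benjamini-Hochberg adjustment over all tested genes. This held for 11 genes (0.103% of those tested), 1 higher and 10 lower at 4w. Of the 10 that fell, 6 belong to the list of muscle genes and 2 encode eggshell proteins, and 1 has no symbol in the name tables used here. The gene that rose was CG2233. In all 11 the ages did not overlap, as was the case for 13.7% of all tested genes with both 4w libraries higher and for 17.8% with both lower. More genes passed the same thresholds with DESeq2, as given below for the processing.

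CG2233 (chromosome X from 8035741 to 8037517, minus strand; BDGP6, the dm6 assembly) had 2001 and 1208 cRPKM in the ECs 4w libraries, against 326 and 433 cRPKM in the ECs 1w libraries. The lower of the 4w libraries was well above the higher of the 1w libraries. On the log2 scale the change was 2.14 (standard error 0.31, adjusted p = 0.00633, edgeR). It lay between 1.71 and 2.46 with any 1 of the 4 libraries left out.

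The 6 called muscle genes fell together. Myofilin (Mf, chromosome 3R from 15170625 to 15181510, minus strand), a thick filament protein, had 30.8 and 42.9 cRPKM at 4w, against 378 and 156 cRPKM at 1w (log2 fold change -2.74, standard error 0.38, adjusted p = 0.00625, edgeR). Mp20, a calponin-like muscle protein, had 26.4 and 31.5 cRPKM at 4w, against 328 and 124 cRPKM at 1w (-2.84, standard error 0.39). Act57B, an actin of muscle, had 11.5 and 4.38 cRPKM at 4w, against 139 and 39.4 cRPKM at 1w (-3.36, standard error 0.54). In each of these genes replicate 1 of ECs 1w was the highest library, and replicate 2 of ECs 1w still lay above both 4w libraries.

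The other 3 were lower in level. The Z-disc protein gene Zasp66 (chromosome 3L from 8624371 to 8638813, plus strand) had 3.6 and 1.12 cRPKM at 4w, against 60.9 and 21.6 cRPKM at 1w (log2 fold change -3.99, standard error 0.68). Bent (bt), which encodes the giant elastic protein projectin, had 0.37 and 0.47 cRPKM at 4w, against 6.74 and 2.75 cRPKM at 1w (-3.39, standard error 0.43). Mlp60A, a muscle LIM protein gene, was close to the detection limit at 4w with 12 and 16 counts, against 600 and 230 counts at 1w (-5.13, standard error 0.78).

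Most of the muscle list lay lower at 4w. Of its 31 tested members, 6 were called lower and none was called higher, 20 had both 4w libraries below both 1w libraries (64.5%, against 17.8% of all tested genes), and the median log2 fold change was -1.86, against -0.03 over all tested genes. The level summed over the list was 590 and 550 cRPKM at 4w and 1848 and 881 cRPKM at 1w. Of the 33 members, 1 had no read in each 4w library (TpnC41C in replicate 1 and TpnC47D in replicate 2), 1 in replicate 2 of ECs 1w (fln) and none in replicate 1 of ECs 1w. Without replicate 1 of ECs 1w the list's median was -1.07, over the 28 members that then passed the count filter. The part of the muscle sheath in the change was not tested.

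Members of the list that other cells also use took other values. Tm1, a tropomyosin, was held, with 203 and 177 cRPKM at 4w and 212 and 178 cRPKM at 1w (log2 fold change 0.04, standard error 0.28). Held means here that the 95% interval of the change lay within 2-fold in either direction, which was so for 16.7% of all tested genes. SERCA, the calcium pump of the endoplasmic reticulum, was held as well, with 41.1 and 48.2 cRPKM at 4w and 38.5 and 48.6 cRPKM at 1w. Actn, tmod and Msp300, genes of actin-binding proteins, had log2 fold changes of 0.69, 0.47 and 0.50 without a call, and in each the 4w libraries were the higher ones. Muscle myosin heavy chain (Mhc) had 1.66 and 0.89 cRPKM at 4w, against 16.4 and 2.79 cRPKM at 1w, and its value of -2.76 (adjusted p = 0.271, edgeR) was not called.

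Prip, a water channel of the aquaporin family (chromosome 2R from 11436243 to 11442216, plus strand), also fell. It had 6.74 and 9.27 cRPKM at 4w, against 99.1 and 50.9 cRPKM at 1w (log2 fold change -3.12, standard error 0.45, adjusted p = 0.0104, edgeR). The other 5 tested members of the list of aquaporins, ammonium and solute channels were not called. A gene listed as FBgn0004028, which no name table used here pairs with a symbol, had 4.92 and 8.58 cRPKM at 4w, against 110 and 63.8 cRPKM at 1w (-3.59, standard error 0.46).

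**Figure D2:**
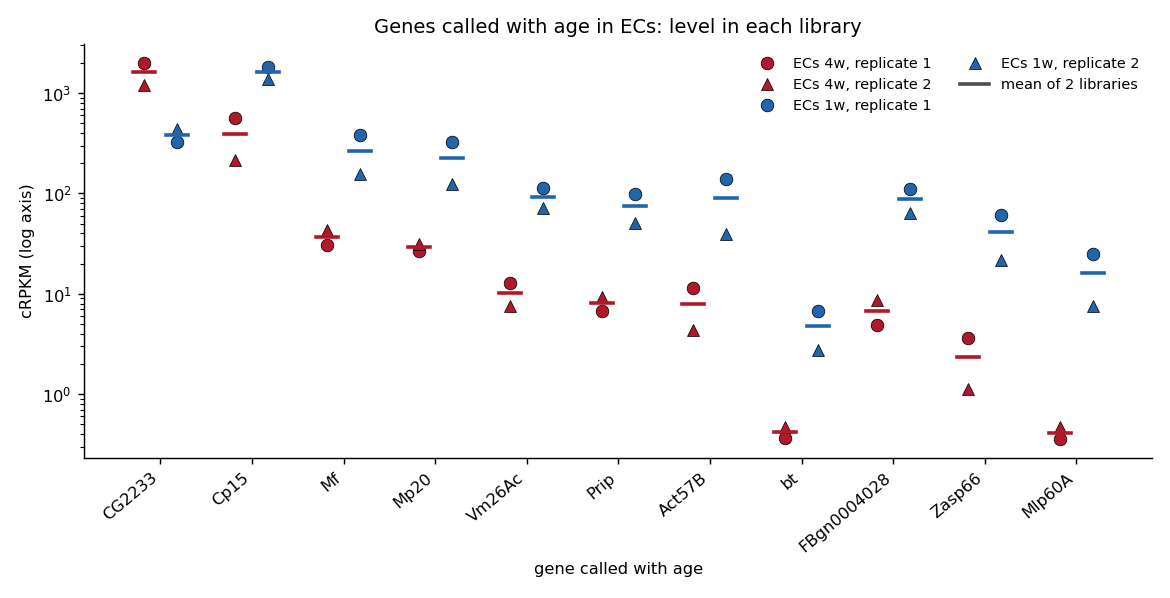
Level (cRPKM, log axis) of the 11 called genes in each EC library, with ECs 4w left of ECs 1w, circles for replicate 1, triangles for replicate 2 and bars for the mean of 2 libraries. The ages do not overlap in any of the 11 genes, and CG2233 is the only one with the higher values at 4w.

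The 2 called eggshell genes fell, while the most abundant eggshell and yolk transcripts were held. Cp15, a chorion protein gene (chromosome 3L from 8728481 to 8729066, plus strand), had 566 and 217 cRPKM at 4w, against 1829 and 1384 cRPKM at 1w (log2 fold change -1.95, standard error 0.36, adjusted p = 0.0625, edgeR). Vm26Ac, of the vitelline membrane family, had 12.9 and 7.58 cRPKM at 4w, against 114 and 70.9 cRPKM at 1w (-3.07, standard error 0.55, adjusted p = 0.0686). Both ages were well separated in these genes. The vitelline membrane genes Vm34Ca and Vm26Aa were held, with log2 fold changes of -0.25 and -0.07, and so were the yolk protein genes Yp1 (-0.19), Yp2 (-0.33) and Yp3 (0.05).

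Vm34Ca was the most abundant of them, with 4263 and 3623 cRPKM at 4w and 5813 and 4139 cRPKM at 1w. Over the 21 late follicle cell genes, 2 were called lower and the median log2 fold change was -0.14. Of them 9 were held (42.9%, against 54.1% of all genes of at least 50 cRPKM). Cp38, another chorion gene, had 17.1 and 25.7 cRPKM at 4w, against 114.6 and 60.7 cRPKM at 1w (-1.93, adjusted p = 0.214, edgeR) and was not called. Vm32E had 14.1 and 131 cRPKM at 4w, against 501 and 321 cRPKM at 1w, and was called with the replicate number as a block (adjusted p = 0.0825, edgeR). The block assumes that same-numbered libraries drew their 4w and 1w females from a common batch, which the labels do not state. With it, 18 genes were called, and these included the 11 of the fit without it.

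The genes next in order, 10 in each direction with no overlap between the ages and a mean of at least 10 cRPKM at the higher age, were not called. With DESeq2 all of them but CG43134 passed the same thresholds. Among those with higher values at 4w were 2 glutathione S-transferases. GstS1 had a log2 fold change of 1.15 (standard error 0.26) with an adjusted p of 0.214, or 0.0466 with the block. GstE1, an epsilon-class enzyme, had 341 and 412 cRPKM at 4w, against 136 and 174 cRPKM at 1w (1.34, standard error 0.31, adjusted p = 0.214, edgeR). In both genes the libraries of an age lay close to each other.

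Ada2a, a subunit of histone acetyltransferase complexes, had 18.3 and 12.8 cRPKM at 4w, against 1.49 and 0.35 cRPKM at 1w (log2 fold change 4.22, standard error 0.81, adjusted p = 0.155, or 0.0916 with the block, edgeR). Other genes share 29.5% of its exon bases, and whether counting took strand into account is not stated, so that its reads may belong in part to a neighbour. Cep135, a centriole protein gene, had 24.0 and 17.2 cRPKM at 4w, against 7.29 and 1.97 cRPKM at 1w (2.29, adjusted p = 0.253, or 0.0913 with the block). Rrp1, a DNA repair endonuclease, had 35.1 and 42.8 cRPKM at 4w, against 16.5 and 9.69 cRPKM at 1w (1.67, adjusted p = 0.256). In each of these genes every 4w library was above every 1w library.

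Of the yellow family, which takes part in pigmentation and eggshell cross-linking, yellow-g2 and yellow-h stood among the next genes. Yellow-g2 rested on replicate 2 of ECs 4w, with 6.81 and 80.6 cRPKM at 4w, against 3.65 and 2.16 cRPKM at 1w (log2 fold change 4.00, adjusted p = 0.141). Yellow-h was even between replicates, with 22.6 and 21.5 cRPKM at 4w, against 2.9 and 3.61 cRPKM at 1w (2.82, adjusted p = 0.258). CG10863, az2, a zinc finger gene, and Psa, a puromycin-sensitive aminopeptidase, had values of 2.25, 2.87 and 1.27.

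On the other side, the next genes held further muscle transcripts and genes of other kinds. The troponin genes TpnC73F and upheld (up) had log2 fold changes of -3.36 (adjusted p = 0.108) and -2.46 (adjusted p = 0.178). Tau, a microtubule-associated protein, had 0.69 and 0.43 cRPKM at 4w, against 7.58 and 12.9 cRPKM at 1w (-4.13, adjusted p = 0.214). CG33557 had no read at 4w and 120 and 86 counts at 1w, which makes its mean at least 37.4-fold lower at 4w. It passed the threshold, as did CG5177, when genes averaging under 5 cRPKM were left out (adjusted p = 0.0981 for both). CG43134 was uneven at 4w, with 81.4 and 625 cRPKM against 3300 and 1512 cRPKM at 1w, and was called with the block (adjusted p = 0.04), as was CG42821 (adjusted p = 0.0739).

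The calls depended on replicate 1 of ECs 1w. Without it, none of the 11 genes was called and 1 other gene was, GstD2, which was chosen for naming after its values were seen. GstD2 had 18.3 and 32.9 cRPKM at 4w, against 15.7 cRPKM in replicate 1 and 379 cRPKM in replicate 2 of ECs 1w, and the ages overlapped once both 1w libraries were used. The log2 fold changes of the 11 genes kept their direction without replicate 1, as with CG2233 at 1.86, Mf at -2.11 and Vm26Ac at -2.81, but their adjusted p then ranged from 0.604 to 0.897. A lone 1w library is assumed in this fit to vary like the 4w libraries.

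The precision of a single gene was low. Over all tested genes the log2 fold change had a median of -0.03 and quartiles of -0.58 and 0.38, and the 95% interval of a gene was 2.63 wide in the median on the log2 scale. An unadjusted p under 0.05 was found for 5.34% of the tested genes. The share of genes held within 2-fold followed the level, with 25.3% of the 7057 genes of at least 5 cRPKM at the higher age, 54.1% of the 2183 genes of at least 50 cRPKM and 85.2% of the 250 genes of at least 500 cRPKM. A gene that was not held may thus have too few reads for a narrow interval, and is not shown to have changed.

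**Figure D3:**
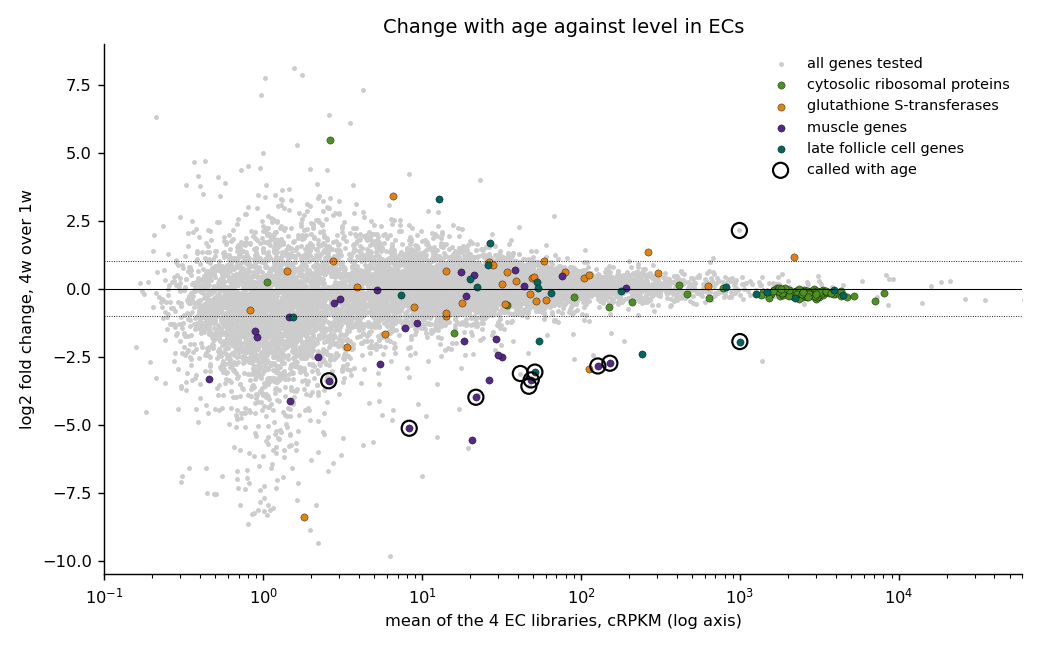
Log2 fold change (4w over 1w) against the mean level of the 4 EC libraries (cRPKM, log axis) of the 10675 tested genes, with 4 gene lists in colour, the 11 called genes ringed and dotted lines at 2-fold. Ribosomal protein genes sit near 0 at the right, 10 of the 11 called genes lie below -1, and the spread widens at low levels.

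Most ribosomal protein genes were held. Of 84 tested cytosolic ribosomal protein genes, 76 were held (90.5%), none was called and the median log2 fold change was -0.18. The share held is near the 85.2% of all genes of at least 500 cRPKM. RpL38 had the highest level, with 7039 and 7717 cRPKM at 4w and 9224 and 8378 cRPKM at 1w (-0.18, 95% interval -0.72 to 0.36). A small shift ran through the list, with 76 members below 0 and 8 above, while the median was -0.09 over all genes of at least 500 cRPKM. The paralogue RpS10a was apart from the rest, with 8.1 and 6.93 cRPKM at 4w, against 23.6 and 24.9 cRPKM at 1w (-1.62, standard error 0.97), and near-identical copies may share reads with it.

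Fewer genes were held in the other lists of protein synthesis, with 25.8% of the tRNA synthetases and 22.7% of the 44 genes listed for ribosome biogenesis and RNA polymerase I. Both shares are near the 25.3% of all genes of at least 5 cRPKM. The latter list also holds Rrp1, the DNA repair endonuclease. Of the translation factors, 53.8% of 52 were held, and Thor, the translation repressor 4E-BP, had 2558 and 1743 cRPKM at 4w and 1671 and 2062 cRPKM at 1w. In 31 tRNA synthetases, which charge tRNAs with amino acids, 10 had both 4w libraries above both 1w libraries (32.3%, against 13.7% of all tested genes and 17.9% of those of at least 5 cRPKM) and 2 both below (6.5%), with none called and a median of 0.07. HisRS, the most abundant, had 123 and 112 cRPKM at 4w, against 99.6 and 62.3 cRPKM at 1w (log2 fold change 0.64, adjusted p = 0.934, edgeR). SerRS-m, the mitochondrial seryl enzyme, had 24.4 and 17.6 cRPKM at 4w, against 9.03 and 5.3 cRPKM at 1w (1.65, standard error 0.63). The median of these enzymes was -0.01 without replicate 1 of ECs 1w.

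Most proteasome genes were held as well. In the proteasome, 27 of 39 tested subunits and assembly factors were held (69.2%, against 54.1% of all genes of at least 50 cRPKM). Both 4w libraries were higher in 8 (20.5%) and lower in 2 (5.1%), and the median was 0.14. Among all genes of at least 5 cRPKM these shares were 17.9% and 14.1%. Rpn5, a subunit of the regulatory particle, had 115.4 and 108 cRPKM at 4w, against 82.2 and 66.4 cRPKM at 1w (log2 fold change 0.68, adjusted p = 0.893). In the autophagy list, Atg8a, the ubiquitin-like protein of the autophagosome membrane, was held at 1468 and 1257 cRPKM at 4w and 1302 and 1334 cRPKM at 1w. The lysosomal proteases CtsL1 and CtsB had 1928 and 1455, and 790 and 721 cRPKM at 4w, against 1597 and 1487, and 544 and 486 cRPKM at 1w.

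Most genes of energy metabolism were held. Of all genes of at least 50 cRPKM, 54.1% were held, and of those of at least 500 cRPKM, 85.2%. Of 13 mitochondrially encoded genes, 12 were held (92.3%), and mt:CoII, a cytochrome c oxidase subunit, had 24366 and 20443 cRPKM at 4w and 19461 and 19790 cRPKM at 1w. Of 78 tested nuclear-encoded genes of the respiratory chain, 59 were held (75.6%), with a median of -0.10. Both 4w libraries were lower than both 1w libraries in 22 of them (28.2%) and higher in 6 (7.7%). Among all genes of at least 5 cRPKM these shares were 14.1% and 17.9%. The membrane ring subunit ATPsynC had 1784 and 1642 cRPKM at 4w and 1898 and 1704 cRPKM at 1w (log2 fold change 0.01). In the tricarboxylic acid (TCA) cycle 17 of 23 genes were held (73.9%) and in glycolysis 9 of 13 (69.2%). Kdn, the citrate synthase gene, was not among them, with 2.2 and 10.5 cRPKM at 4w, against 20.7 and 31.8 cRPKM at 1w (-1.996, standard error 0.60, adjusted p = 0.596, edgeR).

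**Figure D4:**
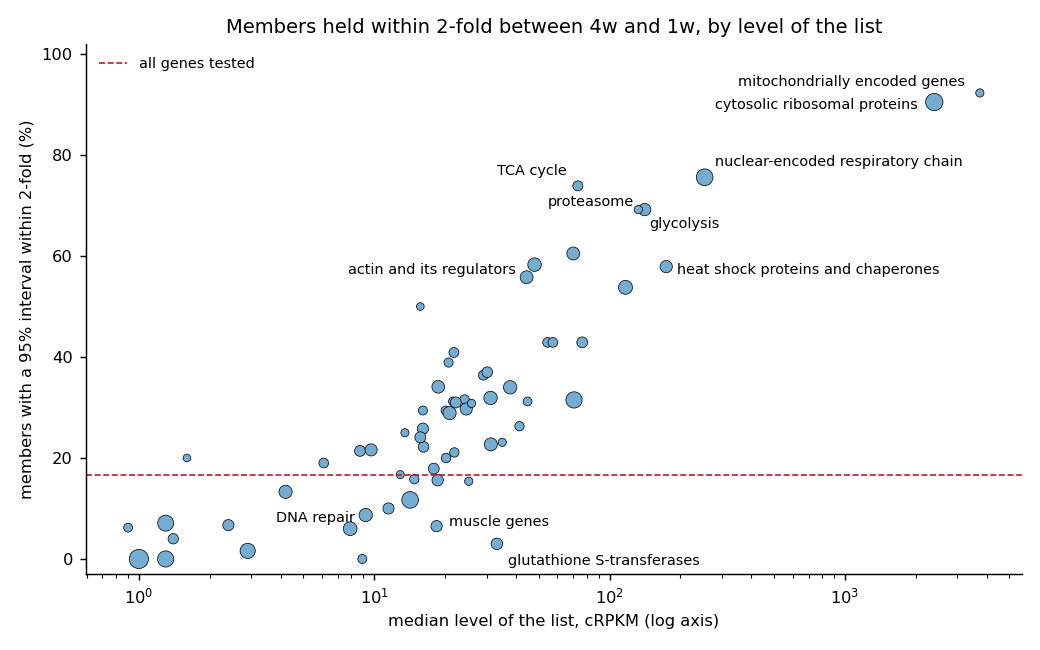
Share of tested members whose 95% interval lies within 2-fold (%) against the median level of each gene list (cRPKM, log axis), with 1 point per list and an area that grows with the number of tested members. The mitochondrially encoded genes (92.3%) and ribosomal proteins (90.5%) lie at the upper right, glutathione S-transferases (3.0%) and muscle genes (6.5%) lie below lists of like level, and the dashed line marks the 16.7% of all tested genes.

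Few detoxification genes were held. Of 33 tested glutathione S-transferases, which couple glutathione to toxic and oxidised compounds, 1 was held (GstD1, named after its values were seen). In 9 both 4w libraries were higher (27.3%) and in 7 both lower (21.2%), with a median log2 fold change of 0.30. Among all genes of at least 5 cRPKM these shares were 17.9% and 14.1%, and 25.3% were held. The level summed over the list was 5674 and 4940 cRPKM at 4w and 3155 and 3808 cRPKM at 1w, with GstS1 as the most abundant member. Without GstS1 the sums were 2423 and 2278 cRPKM at 4w and 1789 and 2370 cRPKM at 1w, and the ages overlapped. The largest differences were at low levels. GstE5 had 19.4 and 4.24 cRPKM at 4w, against 2.18 and 0.29 cRPKM at 1w (3.41, standard error 1.44), and GstD10 had 0.38 and 1.92 cRPKM at 4w, against 8.45 and 2.73 cRPKM at 1w (-2.15, standard error 1.67). No member was called, and neighbouring genes of this family are similar in sequence, which may divide reads between them.

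The cytochromes P450 showed no common direction, with a median of -0.06 over 63 tested genes. In 10 both 4w libraries were higher (15.9%) and in 13 both lower (20.6%), near the 13.7% and 17.8% of all tested genes. At their median level of 2.9 cRPKM, 1 was held (1.6%, against 16.7% of all tested genes). Cyp18a1, which inactivates ecdysone, had 8.7 and 13 cRPKM at 4w, against 32.1 and 20.6 cRPKM at 1w (log2 fold change -1.19, adjusted p = 0.866, edgeR). Of 28 antioxidant genes, 12 were held (42.9%, against 54.1% of all genes of at least 50 cRPKM). Prx2, a peroxiredoxin, had 593 and 629 cRPKM at 4w and 557 and 578 cRPKM at 1w. Trx2, a thioredoxin, had 98.1 and 104.04 cRPKM at 4w, against 237 and 169 cRPKM at 1w (-0.92, adjusted p = 0.752).

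No chaperone gene was called. Of 38 heat shock proteins and chaperones, 22 were held (57.9%, near the 54.1% of all genes of at least 50 cRPKM), with a median of 0.06. Hsc70-4, the constitutive Hsp70 family member, had 3674 and 3458 cRPKM at 4w, against 1916 and 3418 cRPKM at 1w, so that replicate 1 of ECs 1w alone was low. The small heat shock protein gene l(2)efl had 13.7 and 18.6 cRPKM at 4w, against 75.7 and 22.96 cRPKM at 1w (log2 fold change -1.48, adjusted p = 0.903, edgeR).

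Immune genes were low and uneven. Of 49 listed antimicrobial peptides and effectors, 17 were tested and 13 had at most 3 counts in every EC library. Drosocin (Dro), an antimicrobial peptide, had 11.1 and 43.2 cRPKM at 4w, against 121 and 68.4 cRPKM at 1w (log2 fold change -1.71, adjusted p = 0.885, edgeR). The median of the tested members was -0.91. Without replicate 1 of ECs 1w it was 0.06, over the 11 members that then passed the count filter. The Toll and Imd pathway genes that control them had a median of -0.08, and the NF-kappaB factor Relish (Rel) had 64.8 and 103 cRPKM at 4w and 96.4 and 125 cRPKM at 1w. Among recognition proteins, GNBP1 had 19.8 and 20.3 cRPKM at 4w, against 9.49 and 4.4 cRPKM at 1w (1.64, adjusted p = 0.795).

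More genes of the cell cycle and of DNA repair lay higher than lower at 4w. Of 77 tested genes of the cell cycle and DNA replication, 52 had a log2 fold change above 0, 18 had both 4w libraries higher (23.4%) and 4 both lower (5.2%), with a median of 0.28 and none called. Among all genes of at least 5 cRPKM the shares were 17.9% and 14.1% and the median was 0.09. Cyclin G (CycG), the most abundant, was held at 396 and 392 cRPKM at 4w and 289 and 351 cRPKM at 1w (0.36, standard error 0.28). The mitotic kinase gene greatwall (gwl) had 3.09 and 8.78 cRPKM at 4w, against 2.47 and 0.33 cRPKM at 1w (2.23, adjusted p = 0.903, edgeR). Prim1, a DNA primase subunit, had 0.32 and 6.9 cRPKM at 4w, against 8.55 and 18.2 cRPKM at 1w (-1.86, adjusted p = 0.999).

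In DNA repair, 12 of 46 tested genes had both 4w libraries higher (26.1%, against 17.9% of all genes of at least 5 cRPKM) and 4 both lower (8.7%, against 14.1%), with a median of 0.26. The lists share 1 gene. PCNA, the sliding clamp of replication and repair, was held at 91.9 and 76.2 cRPKM at 4w and 112 and 85.8 cRPKM at 1w (log2 fold change -0.15). PolZ1, the catalytic subunit of DNA polymerase zeta, had 3.57 and 3.44 cRPKM at 4w, against 5.89 and 7.29 cRPKM at 1w (-0.85, standard error 0.51).

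No gene of the RNA processing and chromatin lists was called. In the spliceosome core, 14 of 47 genes had both 4w libraries higher (29.8%, against 17.9% of all genes of at least 5 cRPKM) and 3 both lower (6.4%, against 14.1%), with a median of 0.17 that was 0.00 without replicate 1 of ECs 1w. SmE, a core protein of the snRNPs, was held at 241 and 309 cRPKM at 4w and 410 and 287 cRPKM at 1w (log2 fold change -0.25). Phf5a, a component of the U2 snRNP, had 58.8 and 63.3 cRPKM at 4w, against 148 and 90.1 cRPKM at 1w (-0.86, adjusted p = 0.999, edgeR). Smu1, the splicing factor studied by RNAi in the same series, had 22.6 and 19.6 cRPKM at 4w, against 14.5 and 7.85 cRPKM at 1w (1.02, adjusted p = 0.994). The SR proteins, hnRNPs and other regulators of splicing had 58.3% of 48 members held and a median of 0.06.

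Among chromatin genes, the Polycomb and Trithorax groups had a median of 0.18, with 14 of 41 held. Ash2, a subunit of histone methyltransferase complexes, had 98.7 and 67.4 cRPKM at 4w, against 32.0 and 44.2 cRPKM at 1w (log2 fold change 1.18, adjusted p = 0.622, edgeR). The histone variant gene His4r was held at 2749 and 2434 cRPKM at 4w and 2918 and 2446 cRPKM at 1w.

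No gene of the Hh, BMP, Wnt and Notch pathway lists was called, and the shares held were 50%, 31.6%, 22.2% and 20%. Among all genes of at least 5 cRPKM, 25.3% were held. In the Hh pathway the 5 held genes, of 10, included ptc, the receptor whose driver marks the cells, with 63.9 and 51.8 cRPKM at 4w and 74.1 and 42.4 cRPKM at 1w, and the transcription factor ci, with 181 and 148 cRPKM at 4w and 171 and 156 cRPKM at 1w. The ptc gene itself thus had overlapping levels at the 2 ages, and the activity of the ptc-LexA transgene was not measured. The BMP receptor thickveins (tkv), through which ECs can take up BMP ligands, had 331 and 192 cRPKM at 4w, against 133 and 141 cRPKM at 1w (log2 fold change 1.01, standard error 0.31, adjusted p = 0.568, edgeR). Wntless (wls), which carries Wnt ligands to the cell surface, had 120 and 98.8 cRPKM at 4w, against 50.3 and 55.5 cRPKM at 1w (1.12, standard error 0.30, adjusted p = 0.377, or 0.0319 with DESeq2).

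The Wnt ligands that ECs make had different values. Wnt2 had 226 and 172 cRPKM at 4w, against 120 and 119 cRPKM at 1w (log2 fold change 0.81), Wnt6 had 12.9 and 11.1 cRPKM at 4w, against 10.9 and 3.06 cRPKM at 1w (0.91), and Wnt4 was held (0.19). In the Notch pathway, 15 of 20 tested genes were above 0, with a median of 0.18. The target gene E(spl)mbeta-HLH had 929 and 663 cRPKM at 4w, against 575 and 537 cRPKM at 1w (0.60), while the ligand gene Delta had 7.05 and 6.04 cRPKM at 4w, against 16.4 and 9.18 cRPKM at 1w (-0.86). None of these genes was called.

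No gene of the insulin, EGFR and JNK lists was called. Tsc1, a brake on TOR, had 21.3 and 17.4 cRPKM at 4w, against 5.75 and 10.3 cRPKM at 1w (log2 fold change 1.31, adjusted p = 0.748, edgeR). ImpL2, a secreted antagonist of insulin-like peptides, had 57.8 and 84.9 cRPKM at 4w, against 106 and 180 cRPKM at 1w (-0.96, adjusted p = 0.82), and other genes share 61.9% of its exon bases. The EGFR feedback inhibitor kek1 had 128 and 101.6 cRPKM at 4w and 177 and 114 cRPKM at 1w (-0.25). Gadd45, a stress-induced gene of the JNK list, was held at 350 and 438 cRPKM at 4w and 344 and 437 cRPKM at 1w.

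Matrix and junction genes were mixed in the same way. Timp, the inhibitor of matrix metalloproteinases, was the most abundant gene of the basement membrane list, with 2586 and 1711 cRPKM at 4w, against 1634 and 1474 cRPKM at 1w (log2 fold change 0.55, adjusted p = 0.956, edgeR). Its target enzyme Mmp1 had 30.2 and 51.1 cRPKM at 4w, against 105 and 85.5 cRPKM at 1w (-1.15, adjusted p = 0.406 with edgeR, or 0.0458 with DESeq2). The beta-integrin mys was held at 110 and 137 cRPKM at 4w and 147 and 133 cRPKM at 1w. Of the adherens junction, arm, the beta-catenin, had 310 and 214 cRPKM at 4w, against 169 and 192 cRPKM at 1w (0.61). All 7 tested innexins, the gap junction proteins that connect soma and germline, had values below 0, with a median of -0.25, and Inx2 had 103 and 132 cRPKM at 4w and 122 and 155 cRPKM at 1w.

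Tetraspanins, membrane proteins with 4 transmembrane segments, included TM4SF, with 108 and 71.4 cRPKM at 4w, against 22.2 and 38.7 cRPKM at 1w (log2 fold change 1.60, adjusted p = 0.307 with edgeR, or 0.0291 with DESeq2). Tsp42Ee, the most abundant, had 975 and 1026 cRPKM at 4w and 673 and 911 cRPKM at 1w (0.39). The immunoglobulin gene dpr17 had 39.1 and 39.9 cRPKM at 4w, against 21.1 and 14.9 cRPKM at 1w (1.23, adjusted p = 0.406 with edgeR, or 0.0431 with DESeq2). The dpr, DIP and beat list as a whole had a median level of 1.0 cRPKM. Of 43 genes of actin and its regulators, a list without the muscle actin Act57B, 24 were held (55.8%), near the 54.1% of all genes of at least 50 cRPKM. The cytoplasmic actin Act5C had 3519 and 4143 cRPKM at 4w and 3447 and 4125 cRPKM at 1w.

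Lists of genes with low levels had negative medians that turned positive without 1 library. The medians were -0.80 for the dpr, DIP and beat genes, -1.37 for neuron genes, -0.68 for tracheal genes, -0.42 for fat body genes and -0.60 for odorant-binding and chemosensory genes. Without replicate 1 of ECs 1w they were 0.79, 0.21, 1.10, 0.55 and 0.28, so that each turned positive. The count filter was applied anew in that fit, to libraries that were then mostly of 4w. It kept 33 of 41 dpr, DIP and beat genes, 8 of 9 fat body genes and 53 of 105 chemosensory genes. For these lists the 2 medians are of different sets of genes. All 10 neuron genes and all 7 tracheal genes stayed in. The summed level of tracheal genes was 3.60 and 6.03 cRPKM at 4w and 14.9 and 3.81 cRPKM at 1w, and that of fat body genes was 6.18 and 9.75 cRPKM at 4w and 17.4 and 8.1 cRPKM at 1w. In both lists replicate 1 of ECs 1w was the high library, the same library that listed the most genes at 1 cRPKM or more.

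Cuticle and chitin genes had a median of -0.84 over 72 tested members. It was -0.51 without that library, over the 43 members that then passed the count filter. Both 4w libraries were lower in 23 of them (31.9%, against 17.8% of all tested genes) and higher in 2 (2.8%, against 13.7%). Medians were recomputed with other size factors, a filter at 5 cRPKM, differences of log2(cRPKM + 1) and each library left out. Of 76 lists, 23 kept the sign of their median under all of these, 13 above 0 and 10 below 0. The lists above 0 included the EC markers (0.20 to 0.42), glutathione S-transferases (0.19 to 0.39), DNA repair (0.14 to 0.38) and cell cycle genes (0.07 to 0.31). Those below 0 included muscle genes (-2.42 to -1.07), cytosolic ribosomal proteins (-0.40 to -0.01) and cuticle genes (-1.04 to -0.46). The plot of list medians shows them beside the value without replicate 1 of ECs 1w.

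**Figure D5:**
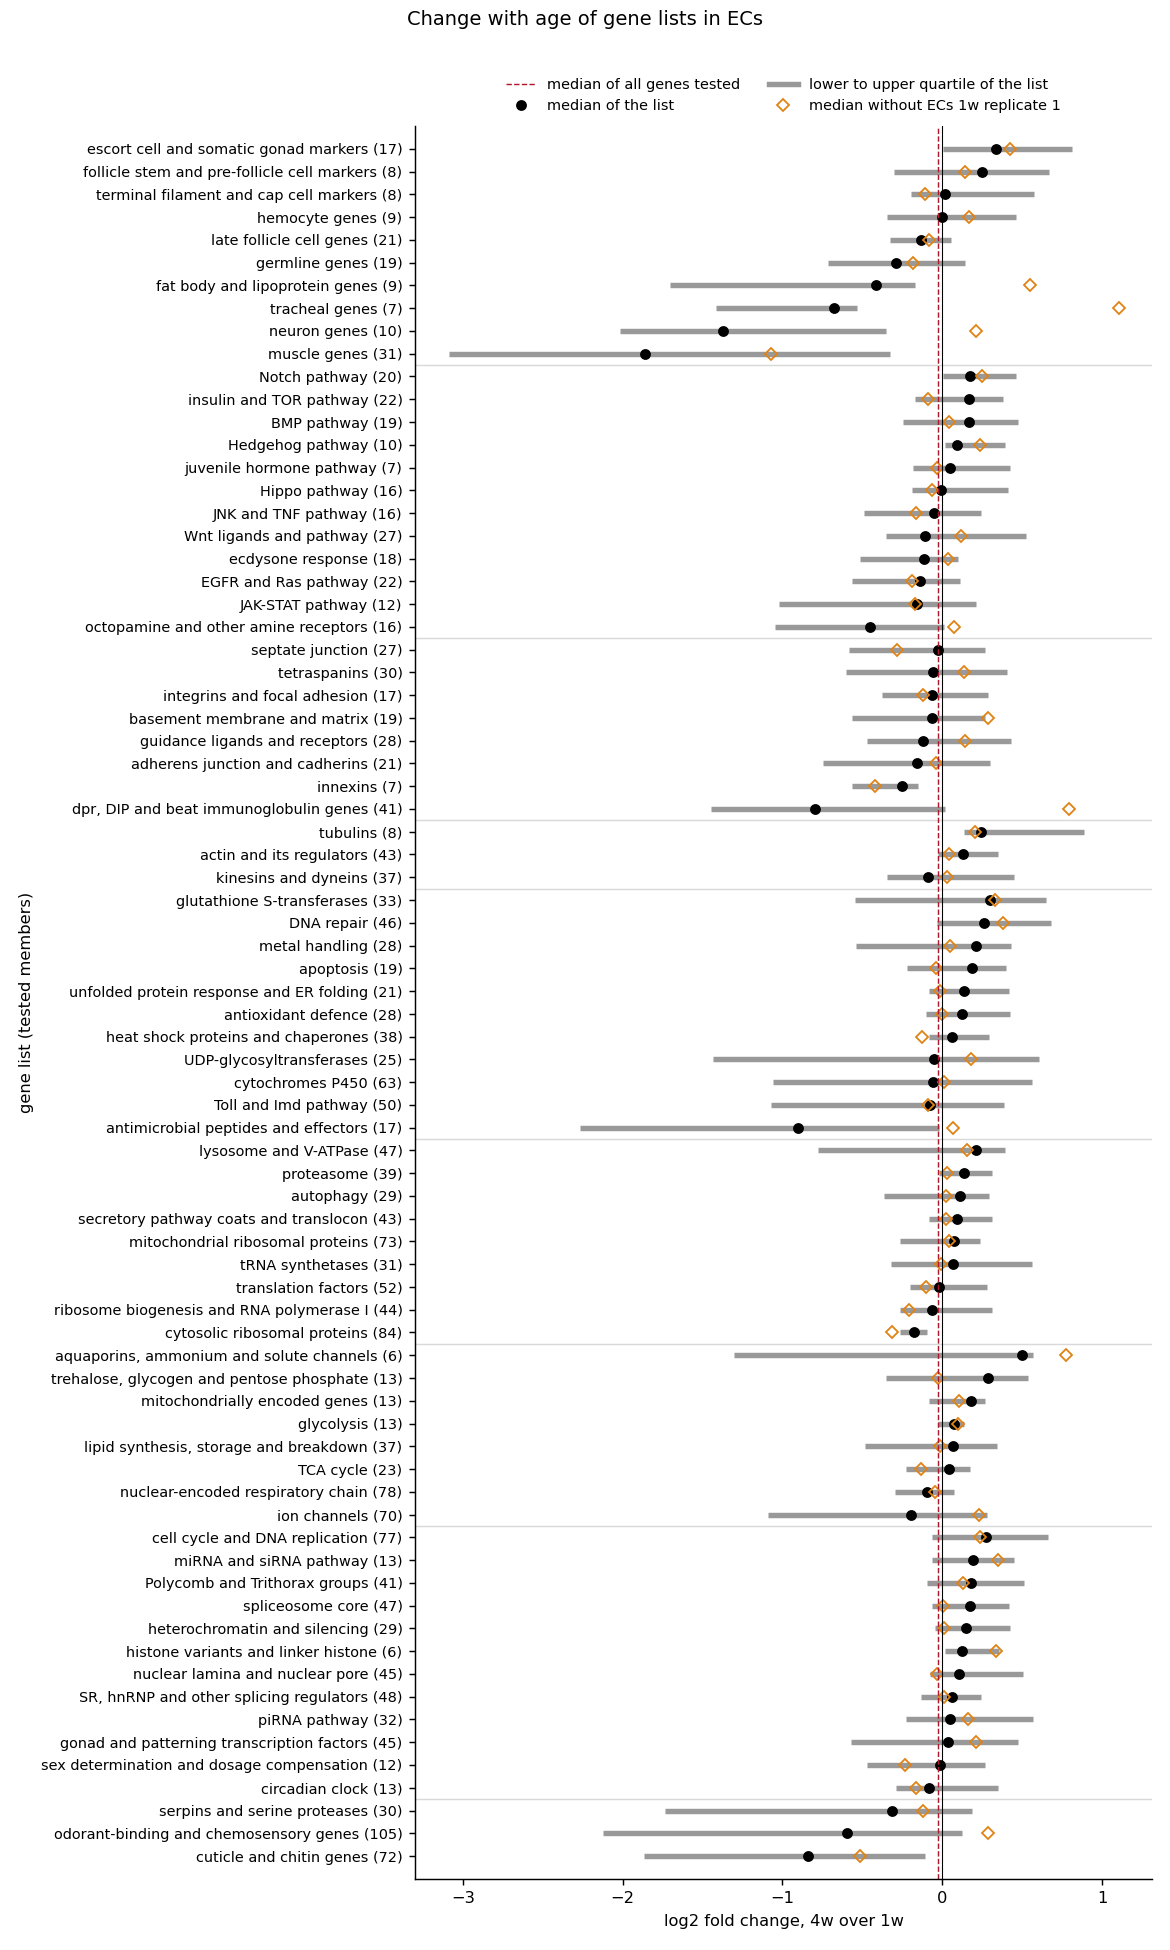
Median log2 fold change (4w over 1w) of each gene list in ECs (black points) with the lower to upper quartile of its members (grey bars), the median without ECs 1w replicate 1 (open diamonds) and the median of all tested genes (dashed line, -0.03). Lists are grouped by function, with the number of tested members in brackets, of which the diamonds can hold fewer. The muscle list lies lowest at -1.86.

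Whether the effect in a called gene differed from that in TFCs-CpCs was asked of the 8 ageing libraries with an interaction term (edgeR, same thresholds). Driver, reporter and sort gate also differ between the cell groups, and cannot be told apart from cell type. Of the 11 genes, 6 differed, and of all 11452 genes tested 2.47% did. The 11 were chosen for their change in the same EC libraries, so these shares cannot be compared. Mf, Mp20, Act57B and Prip fell less in ECs than in TFCs-CpCs, with log2 differences of 2.65, 3.01, 3.61 and 3.07. Act57B had 143 and 92.0 cRPKM in TFCs-CpCs 4w, against 11798 and 12982 cRPKM in TFCs-CpCs 1w, levels far above those in ECs. All 4 had their high levels at 1w in both cell groups.

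Cp15 and Vm26Ac fell in ECs, and their log2 changes differed by -10.82 and -7.04 from those in TFCs-CpCs. Cp15 had 73479 and 60.4 cRPKM in TFCs-CpCs 4w, against 62.4 and 73.0 cRPKM in TFCs-CpCs 1w, so that replicate 1 of TFCs-CpCs 4w alone was high. Vm26Ac was uneven too, with 1342 and 141 cRPKM in TFCs-CpCs 4w, against 2.6 and 82.4 cRPKM in TFCs-CpCs 1w. CG2233, which rose in ECs, had 112 and 146 cRPKM in TFCs-CpCs 4w and 44.1 and 112 cRPKM in TFCs-CpCs 1w, and its effects were not shown to differ (difference 1.65, adjusted p = 0.293, edgeR). The count of 6 was not stable: it was 0 or 1 without any 1 of the 4 EC libraries and 1 without either of the 1w libraries of TFCs-CpCs.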

How the data were processed

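Gene expression was measured by polyA RNA-seq of sorted, GFP-labelled ovarian somatic cells. Per library, the authors deposited raw read counts per gene and cRPKM values, an RPKM corrected for mappable transcript length; dm6 is the build the labels give. The file layout is that of vast-tools, and whether the counting used the strand is not given in the sources used here. Of 14489 listed genes, 763 held no value. Symbols and BDGP6 positions were paired by identifier for 13506 genes.

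Genes with at least 10 counts in 2 or more of the 4 EC libraries were fitted with edgeR 4.0.16 (R 4.3.3, TMM scaling, quasi-likelihood F-test on the counts, age as the only term), and p-values were adjusted by Benjamini-Hochberg over the 10675 genes tested. Standard errors are of Wald type, from the fitted model. The difference from TFCs-CpCs was an interaction term in a fit of the 8 ageing libraries. The fit was tested on simulated data. DESeq2 1.42.0, limma 3.58.1 on log2(cRPKM + 1) and log2(cRPKM + 0.1), other filters and scalings, a replicate block and leaving out each library were the alternatives.

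Per the study's methods, females of both ages were split from 1 batch in each replicate. Same-numbered EC libraries may thus share a batch, but no label says that the numbers pair them. Across 10675 genes the deviations of same-numbered libraries from their age means correlated at -0.035. Pairing in TFCs-CpCs is not known either.

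Named are all called genes, the 10 next in each direction, the most abundant member and the members with the largest separated difference each way in a list, and cell type markers, except where stated. The lists and comparisons were chosen with earlier results of these data known.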

Additional observations from a re-analysis of the deposited data

Results flagged for a closer look

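For the genes below, the change with age in ECs differed from that in TFCs-CpCs in the interaction test (edgeR, adjusted p under 0.1). Values are log2 fold changes in ECs minus those in TFCs-CpCs. With 2 libraries per group, leaving out 1 of the 8 libraries ended many of these calls, and the causes were not tested.

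Muscle genes had less negative changes in ECs, with differences of 3.61 for Act57B, 3.01 for Mp20, 2.65 for Mf, 3.83 for up, 3.62 for Mlc2 and 3.69 for Actn. Prip, the water channel, had 3.07. The adjusted p ranged from 0.0133 for Actn to 0.0992 for Prip. Actn had 0.69 in ECs and -3.01 in TFCs-CpCs and was called with any 1 of the 8 libraries left out, whereas Mf was called in 1 of 8 such fits.

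The eggshell genes Cp15 and Vm26Ac had -10.82 and -7.04, and CG42821 had -10.62, with opposite signs in the cell groups. In TFCs-CpCs alone the changes of Cp15 and Vm26Ac did not pass the threshold (adjusted p = 0.207 and 0.327, edgeR). The antimicrobial peptide gene Dro had -10.69 and the chitin deacetylase gene serp -12.35. CG42821 and Dro were called with any 1 library left out, Vm26Ac and serp each in 3 of 8 such fits, and Cp15 in 1 of 8.

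Differences of the age effects were negative for signalling, matrix and serpin genes, with -3.26 for hh, -2.28 for kek1, -3.13 for ImpL2, -3.44 for Mmp1 and -2.14 for Spn88Ea. The iron-binding protein gene Tsf2 had -4.05, tau -4.05, PolZ1 -4.33 and CG11378 -2.7. Mmp1 and Tsf2 were called with any 1 library left out.

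Genes with positive differences of the age effects included CG10863 (3.39), yellow-h (5.06) and fax (2.47). The chaperone gene l(2)efl had 3.78, the peroxiredoxin gene Prx2 3.2, the hormone-sensitive lipase gene Hsl 3.37 and the glycogen phosphorylase gene Glyp 2.05. Prx2 was held in ECs (0.18) and had -3.04 in TFCs-CpCs, and both Prx2 and l(2)efl were called with any 1 library left out.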

How the results depend on the processing

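The 11 genes called with age in ECs were 113 with DESeq2, 133 with DESeq2 and no filter on low counts, and 63 in edgeR with no filter, and each of these shared all 11. They were 40 in a fit of all 12 libraries (6 shared), 18 with the replicate block (all 11 shared) and 7 with limma on either pseudocount (6 shared). Leaving out 1 EC library gave between 1 and 32 genes: 1 without ECs 1w replicate 1 (none shared), 32 without ECs 1w replicate 2, 17 without ECs 4w replicate 1 and 21 without ECs 4w replicate 2. The count of called genes whose change differed from that in TFCs-CpCs was 6, between 0 and 1 without 1 EC library and between 1 and 6 without 1 TFCs-CpCs library, the last being chosen after seeing the data. None of the 31 genes that were called or next in order reversed direction, while 50 of the 219 other named genes changed sign under some alternative, 8 of them with a log2 fold change of 0.5 or more in size.

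With 2 libraries per age the median 95% interval was 2.63 wide on the log2 scale, so most genes below 50 cRPKM cannot be called steady. Without ECs 1w replicate 1, 30 of 76 list medians changed sign, in part over fewer members, because the count filter was applied anew. Leaving out a library leaves an age with 1 sample, which is assumed to vary like the others. The causes were not tested.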

Other observations

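Among all genes of at least 5 cRPKM, both 4w libraries were higher in 17.9% and both lower in 14.1%. The piRNA pathway, which silences transposons, had 8 of 32 genes higher (25%) and 4 lower (12.5%), with a median log2 fold change of 0.05. Nuclear lamina and pore genes had 7 of 45 higher (15.6%) and 1 lower (2.2%), with a median of 0.10. Mitochondrial ribosomal proteins had 23 of 73 held, 5 higher (6.8%) and 11 lower (15.1%), and a median of 0.07. Ecdysone response genes had 6 of 18 lower (33.3%), 1 higher (5.6%) and a median of -0.12. No gene of these 4 lists was called.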
